A study of Mus musculus with 6 samples.

Results

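Matrix metalloproteinases (MMPs), ADAMTS proteinases, ADAMTS-like proteins and the tissue inhibitors of metalloproteinases (TIMPs) were followed in fibroblasts of the mouse knee synovium, the lining tissue of the joint. The genes were taken by symbol: every row of the count table named Mmp, Adamts, Adamtsl or Timp followed by its number, and for Mmp an optional letter a or b. This gave 45 of the 24348 genes, made up of 17 MMP, 19 ADAMTS, 5 ADAMTS-like and 4 TIMP genes. Every gene in the count table had a count above 0 in 3 or more libraries. Genes of these families that have no row are not among the 45. Gene expression was measured by bulk total RNA-seq of flow-sorted synovial fibroblasts from C57BL/6 mice, in 3 libraries after immune complexes (IC) and 3 after vehicle. The IC were ovalbumin bound by rabbit polyclonal antibody against it and were injected into the tail vein, and all mice had the same genotype. The labels do not give the age of the mice, the time between injection and sorting or whether each library came from 1 mouse, so p-values measure only the spread between these libraries. The study's methods give an adult age range and both sexes for its mice as a whole. The gate used to sort the fibroblasts is not given in the sources used here.

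MMPs are zinc proteinases that cut collagens and other extracellular matrix proteins, and most are made as inactive precursors that other proteinases open. ADAMTS proteinases carry thrombospondin type repeats that hold them near matrix, and they fall into groups that cut large aggregating proteoglycans, trim procollagens or cut cartilage oligomeric matrix protein (COMP). ADAMTS-like proteins have the repeats without a proteinase domain. TIMPs bind the active site of these enzymes, and TIMP3 differs from the other TIMPs in that it is bound to matrix and inhibits aggrecan-cutting ADAMTS enzymes well. In arthritis, synovial fibroblasts are a known source of several of these enzymes.

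Total counts lay between 43577433 and 54025183 in the IC libraries and between 40114331 and 56714304 in the vehicle libraries, so depth overlapped between groups. The 7 fibroblast markers examined, such as Pdgfra, Col1a1 and Dcn, summed to 32117 to 33042 CPM (counts scaled to a common library total) in the IC libraries and 31470 to 37913 in the vehicle libraries. Of the 7, 6 had a log2 fold change below 0, and Lum was lower after IC at −0.36 ± 0.09 (SE, DESeq2 adjusted p = 0.0025). Markers of other cells were far less abundant, but for some lists the groups did not overlap. The 10 skeletal muscle markers summed to 25.7 to 56.5 CPM after IC and 59.1 to 119 after vehicle, and all 9 tested had a log2 fold change below 0. Satellite cell markers (4 genes) summed to 32.7 to 60.1 and 70.0 to 109 CPM, endothelial markers (7 genes) to 189 to 248 and 260 to 296 CPM, and adipocyte markers (4 genes) to 2.50 to 2.85 and 3.47 to 5.08 CPM. Macrophage markers overlapped, at 23.3 to 35.2 and 25.9 to 31.6 CPM. The 3 further macrophage genes looked for, Adgre1, C1qa and Ptprc, had no row in the count table. The part of these other cells in the values below was not tested, and in bulk RNA fewer cells of a type and less RNA per cell cannot be told apart.

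Levels were compared between genes as normalized counts (counts divided by the DESeq2 size factor of the library) per kb of exon. Over the 6 libraries, Timp2 had the highest level per kb of all the 45 genes, at 23610.3 ± 2678 (SD, n = 6). Next came Mmp2, gelatinase A, at 21891 ± 1372, and the ranges of these 2 genes over the libraries overlapped, so their order was not resolved. Together they made up 51.8% of the summed level per kb of the 45 genes. Both stood among the most abundant of the 23890 genes with a length, at ranks 33 and 36. Timp3 followed at 7699 ± 1074, and Adamts1 at 5319 ± 314. Both ranges lay apart from those of the genes next to them in the order. Mmp14, the membrane-type MMP that activates the Mmp2 precursor, reached 3726 ± 205, and its range overlapped that of Adamts2, a procollagen N-proteinase, at 3171 ± 188. The next members in the order were Mmp3 (2884 ± 571), Adamtsl4 (2814 ± 241), Adamts5 (2641 ± 210.1) and Adamtsl3 (2534 ± 108), each overlapping its neighbour. These 10 genes held 86.9% of the summed level.

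Timp1 stood far below Timp2 and Timp3, with a level per kb of 932 ± 333, and Timp4 was near the bottom. At the low end of the order, the collagenases Mmp13 and Mmp1a and the gelatinase Mmp9 were barely detected. Raw counts of Mmp13, a main collagenase of mouse cartilage and bone, were 0, 2 and 0 in the IC libraries and 7, 24 and 0 in the vehicle libraries. Those of Mmp9, a gelatinase abundant in neutrophils, were 14, 3 and 6 in the IC libraries and 2, 0 and 0 in the vehicle libraries. For Mmp9 every IC library lay above every vehicle library, at counts of 14 or fewer, and for Mmp13 the groups overlapped. Neither reached 10 counts in 3 libraries, nor did Mmp1a, Mmp24 and Adamts13, and none of these 5 genes was tested. Their highest raw count in any library was 24, in total counts of at least 40114331. The 2 neutrophil markers in the table, S100a8 and Mpo, summed to 0.138 to 0.426 CPM after IC and 0 to 0.141 CPM after vehicle.

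**Figure D1:**
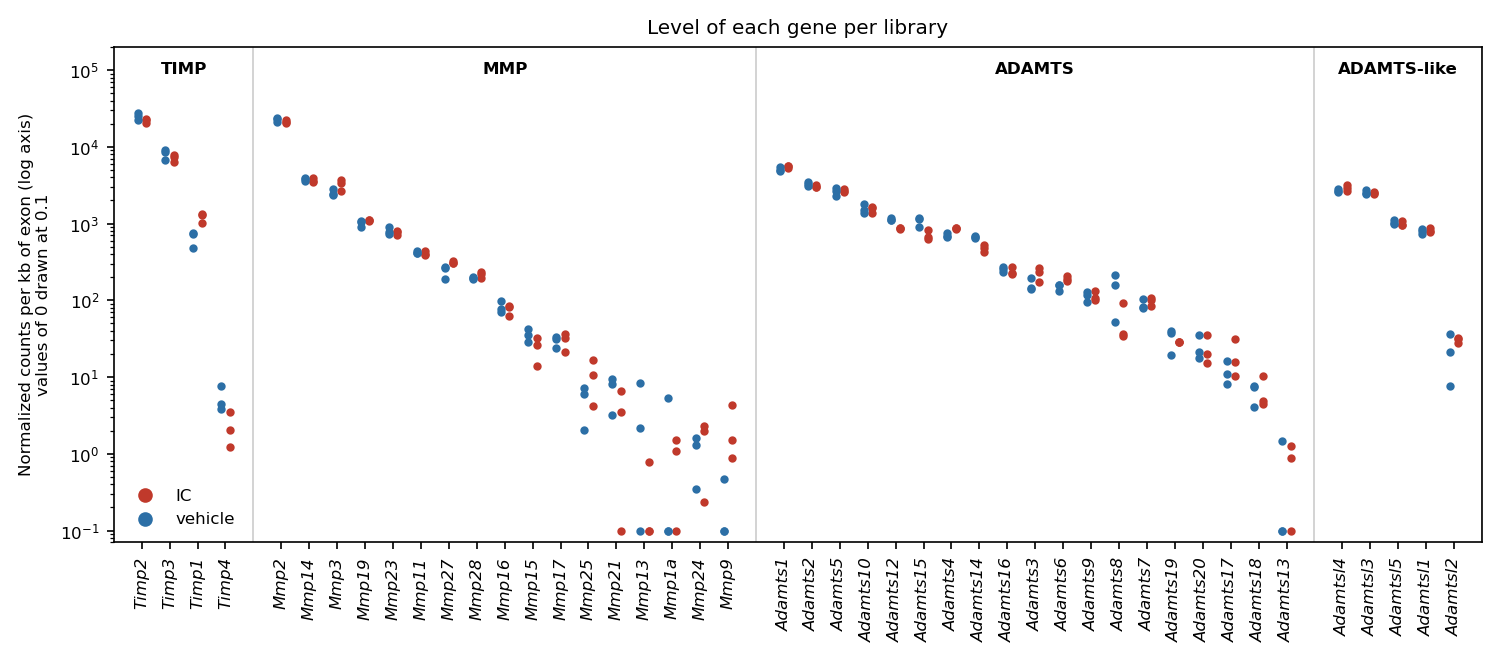
Level of each of the 45 genes in each of the 6 libraries, as normalized counts per kb of exon on a log axis, with IC libraries in red and vehicle libraries in blue and genes ordered by level within each class (values of 0 drawn at 0.1). Timp2 and Mmp2 lay at the top in all 6 libraries, and Mmp13, Mmp1a, Mmp9, Mmp24 and Adamts13 lay at the bottom, with points of both colours among their lowest values.

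IC and vehicle libraries were compared by DESeq2 (Wald test) over the 19925 genes that reached 10 counts in 3 or more libraries, and a gene was called at an adjusted p under 0.05. Log2 fold changes are given ± SE, with n = 3 libraries per group. Of the 45 genes, 40 were tested and 5 were called (12.5%), beside 419 of all tested genes (2.10%). These families were picked when earlier results of these data were known, so the shares cannot test for an excess of calls. Mmp21 and Timp4 were tested but too low to be given an adjusted p. Timp1 and Adamts4 were called higher after IC, where 205 of all tested genes were (1.03%). Adamts12, Adamts14 and Adamts15 were called lower, as were 214 of all tested genes (1.07%). The median log2 fold change of the 40 genes was −0.023, beside −0.0019 over all tested genes, with 18 above 0 and 22 below.

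At an unadjusted p under 0.05 there were 10 members (6 higher and 4 lower), beside 9.80% of all tested genes. The libraries of the groups did not overlap in 9 members (22.5%), beside 15.8% of all tested genes. The summed markers of skeletal muscle, satellite cells, endothelium and fat, given above, also did not overlap and were lower after IC, and their part in the member calls was not tested. Abundant genes were called more often in general, and most of these members are abundant. Where the mean normalized count reached 1000, 4 of 24 members were called (16.7%), beside 279 of 6916 genes (4.03%). By class, 1 of 4 TIMP genes and 4 of 18 tested ADAMTS genes were called, and 0 of 13 tested MMP genes and 0 of 5 ADAMTS-like genes. Of the MMP and ADAMTS-like genes, 2 had an unadjusted p under 0.05 with DESeq2, both MMPs.

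The quasi-likelihood test of edgeR called 0 of the 40 members, with 10 at an unadjusted p under 0.05, and 37 of all tested genes (0.186%). Of the 5 calls of DESeq2, limma-voom kept 1, Adamts12.

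**Figure D2:**
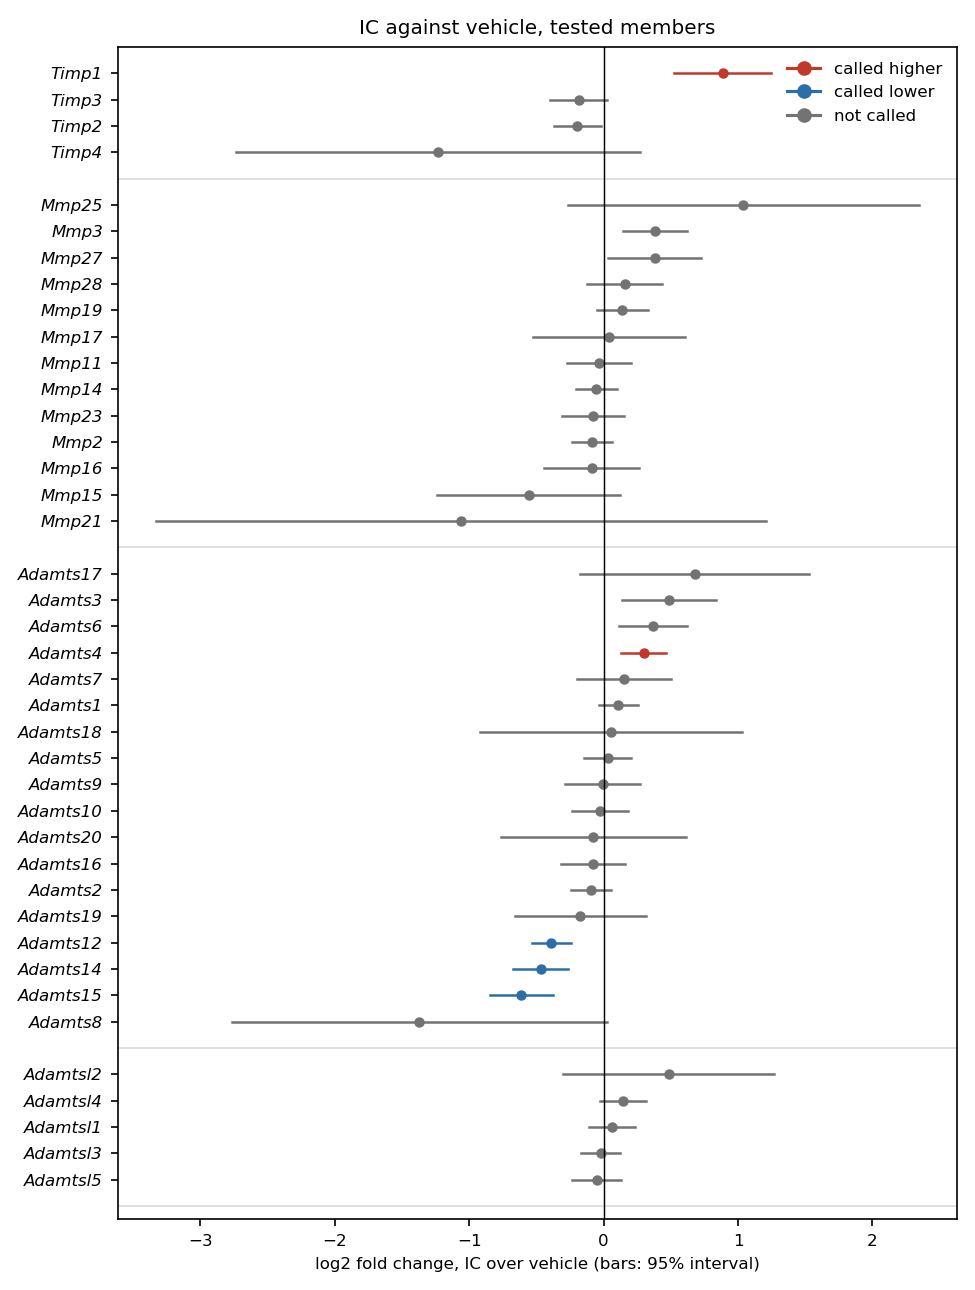
Log2 fold change of IC over vehicle for the 40 tested genes with its 95% interval (bars), in the order TIMP, MMP, ADAMTS and ADAMTS-like from the top, with red for genes called higher, blue for genes called lower and grey for the rest. Timp1 and Adamts4 lay above 0, Adamts12, Adamts14 and Adamts15 below 0, and the widest intervals were those of low genes such as Mmp21, Adamts8 and Timp4.

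Timp1, the inducible member of the inhibitor family on the X chromosome (chrX:20870166-20874735, plus strand), rose after IC. Its normalized counts were 915, 1135 and 1172 in the IC libraries and 671, 429 and 646 in the vehicle libraries, in the order of replicates 1, 2 and 3 used throughout. All 3 IC libraries lay above all 3 vehicle libraries. Its log2 fold change was 0.89 ± 0.18, which is 1.85-fold, with DESeq2 adjusted p = 0.000272 and an edgeR adjusted p of 0.0836. With each library left out in turn it was called in all 6 fits, with DESeq2 adjusted p from 0.000117 to 0.0184. Timp1 made up 3.33%, 4.58% and 4.07% of the summed TIMP level per kb in the IC libraries and 2.52%, 1.28% and 2.10% in the vehicle libraries.

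Timp2 and Timp3, which made up the rest of the TIMP level, were not called. Normalized counts of Timp2 were 87707, 78867 and 90716 in the IC libraries and 87183, 108905 and 98535 in the vehicle libraries. The groups overlapped, since vehicle replicate 1 lay among the IC libraries, and the log2 fold change was −0.20 ± 0.09 with DESeq2 adjusted p = 0.349. Timp3 had 55213, 74919.8 and 69982 with vehicle and 60066, 51972 and 64052 with IC, again with vehicle replicate 1 inside the IC range, and a log2 fold change of −0.18 ± 0.11 (DESeq2 adjusted p = 0.565). Without vehicle replicate 1 both genes were called lower after IC, at DESeq2 adjusted p of 0.0269 for Timp2 and 0.0296 for Timp3. In the other fits that left out 1 library neither was called. There the DESeq2 adjusted p was between 0.338 and 0.841 for Timp2 and between 0.475 and 0.965 for Timp3. The exons of Timp3 overlap 1733 bases of Syn3 on the other strand, and the strand setting used in counting is not given in the sources used here. Timp4, the scarcest TIMP, had normalized counts of 12.1, 20.7 and 7.17 in the IC libraries and 26.2, 22.7 and 45 in the vehicle libraries. These groups did not overlap, but the gene was too low for DESeq2 to give an adjusted p (unadjusted p = 0.107).

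Promoter sequence was examined next. Windows of 250 bases before the transcription start were present in the RefSeq promoter table (GRCm38.p6) for 30 of the 45 genes, including Timp1, Adamts12 and Adamts14 among the called genes. They were searched for TGAGTCA and its reverse complement TGACTCA, the site of the AP-1 transcription factor known from collagenase and stromelysin promoters, so that both strands were covered. The motif was found in 3 of the 30 genes (10%), beside 1466 of all 32851 windows in the table (4.46%). The first share counts genes and the second counts windows, and a gene can have several windows, as Mmp23 does. All 3 genes, Mmp13, Mmp1a and Mmp3, lie in the MMP cluster on chromosome 9. It began 35 bases before the start in Mmp13, 73 in Mmp1a and 46 in Mmp3. None of the 3 called genes with a window held it, which says only that these letters are not in those windows. The 120 bases before the start are shown for the 3 genes with the motif and for Timp1, the called inhibitor, all on the plus strand and with the motif in capitals. They lie at chr9:7272394-7272513, chr9:7464021-7464140, chr9:7445702-7445821 and chrX:20870046-20870165.
Mmp13: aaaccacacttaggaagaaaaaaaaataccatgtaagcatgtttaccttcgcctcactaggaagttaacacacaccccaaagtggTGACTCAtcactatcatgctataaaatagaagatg
Mmp1a: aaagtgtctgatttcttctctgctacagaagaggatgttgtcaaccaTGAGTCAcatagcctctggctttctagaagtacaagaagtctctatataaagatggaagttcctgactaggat
Mmp3: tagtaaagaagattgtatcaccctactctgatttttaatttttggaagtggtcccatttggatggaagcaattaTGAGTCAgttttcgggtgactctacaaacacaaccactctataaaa
Timp1: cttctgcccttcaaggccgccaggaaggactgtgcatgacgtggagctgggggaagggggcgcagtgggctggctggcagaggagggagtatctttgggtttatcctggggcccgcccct

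The 7 ADAMTS genes whose enzymes cut aggrecan, versican and related proteoglycans gave 1 call in each direction. Adamts4, aggrecanase 1 (chr1:171250421-171260637, plus strand), had normalized counts of 4238, 4124 and 4177 in the IC libraries and 3305, 3634 and 3266 in the vehicle libraries. The IC libraries lay close together and above every vehicle library. Its log2 fold change was 0.30 ± 0.09, a rise of 1.23-fold, with DESeq2 adjusted p = 0.0313 and an edgeR adjusted p of 0.152. This call was lost without IC replicate 1 (DESeq2 adjusted p = 0.134), IC replicate 2 (0.0971), IC replicate 3 (0.0822) or vehicle replicate 3 (0.15).

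Adamts5, aggrecanase 2 and the main aggrecan-cutting enzyme of mouse cartilage, was more abundant and was not called. Its normalized counts were 24759, 31189 and 28648 with vehicle and 27526, 28481 and 30374 with IC, and the groups overlapped. The fold of IC over vehicle was 1.02, with a 95% interval of 0.903 to 1.15 (DESeq2 adjusted p = 0.972). Adamts4 was at 34.5%, 32.5% and 30.9% of the level per kb of Adamts5 in the IC libraries and at 29.9%, 26.1% and 25.6% in the vehicle libraries. Adamts1, which lies 53.1 kb from Adamts5 on chromosome 16 and had the highest level per kb of the ADAMTS genes, had 29537, 28246 and 30034 in the IC libraries and 25849.6, 28953 and 26585 in the vehicle libraries. The groups overlapped, and the fold was 1.08 with an interval of 0.976 to 1.19 (DESeq2 adjusted p = 0.659).

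Adamts15, a versican- and aggrecan-cutting enzyme (chr9:30899155-30922452, minus strand), fell. Its normalized counts were 8489, 6492 and 6854 in the IC libraries and 9259, 12265 and 11862 in the vehicle libraries. Every IC library lay below every vehicle library, with IC replicate 1 and vehicle replicate 1 closest to each other. The log2 fold change was −0.61 ± 0.12, so that vehicle was 1.53-fold higher (DESeq2 adjusted p = 7.48e-05, edgeR adjusted p = 0.0836). It was called in all 6 fits that left out 1 library, with DESeq2 adjusted p from 4.33e-08 to 0.0213. Relative to Adamts1, its level per kb was 14.7%, 11.8% and 11.7% after IC and 18.3%, 21.7% and 22.8% after vehicle. Its neighbour Adamts8, 20.1 kb away on the other strand, had 422, 159 and 168 in the IC libraries and 238, 729 and 975 in the vehicle libraries. These counts spread widely and overlapped, and the log2 fold change of −1.37 ± 0.71 was not called (DESeq2 adjusted p = 0.454). Its exons overlap 489 bases of Gm29724 on the other strand. Adamts9 and Adamts20 had log2 fold changes of −0.0077 and −0.076 and were not called.

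Of the 3 procollagen N-proteinases, which trim the amino ends of fibrillar procollagens, Adamts14 fell (chr10:61197112-61273438, minus strand). Normalized counts were 2510.2, 2204 and 2759 in the IC libraries and 3563, 3346 and 3439.8 in the vehicle libraries. The vehicle libraries lay close together, above every IC library. Its log2 fold change was −0.47 ± 0.10, or 1.38-fold higher with vehicle (DESeq2 adjusted p = 0.000924, edgeR adjusted p = 0.0764), and it was called in all 6 fits that left out 1 library. Adamts2, the most abundant of the 3, had 28668, 32627 and 30406 with vehicle and 28239, 27912 and 29784 with IC, overlapping groups and a fold of 0.937 with an interval of 0.846 to 1.04. Adamts3 leaned the other way from Adamts14, with 945, 1273 and 1433 in the IC libraries and 769.9, 1065 and 776 in the vehicle libraries. IC replicate 1 lay inside the vehicle range, and the log2 fold change of 0.48 ± 0.18 was not called (DESeq2 adjusted p = 0.144). It was called without IC replicate 1 (DESeq2 adjusted p = 0.0357) and without vehicle replicate 2 (0.0303). In the other fits that left out 1 library the DESeq2 adjusted p was between 0.319 and 0.614. Adamts14 made up 13.1%, 11.6% and 13.3% of the level per kb of the 3 genes in the IC libraries and 17.6%, 14.9% and 16.3% in the vehicle libraries.

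Adamts12, a COMP-cutting enzyme (chr15:11064790-11349231, plus strand), also fell, and it had the smallest adjusted p of the 45 genes. The 6 normalized counts were 9680.5, 9231 and 9621 in the IC libraries and 11995, 12302 and 13078 in the vehicle libraries. Both groups were tight and lay apart. The log2 fold change was −0.39 ± 0.07, or 1.31-fold higher with vehicle (DESeq2 adjusted p = 4.39e-05, edgeR adjusted p = 0.0585). Leaving out any 1 library kept the call, with DESeq2 adjusted p from 2e-06 to 0.00225. Adamts7, the other COMP-cutting member, had a level per kb of 92.9 ± 12.8 over the 6 libraries, beside 1006 ± 152 for Adamts12, and was not called (log2 fold change 0.15 ± 0.18, DESeq2 adjusted p = 0.876).

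**Figure D3:**
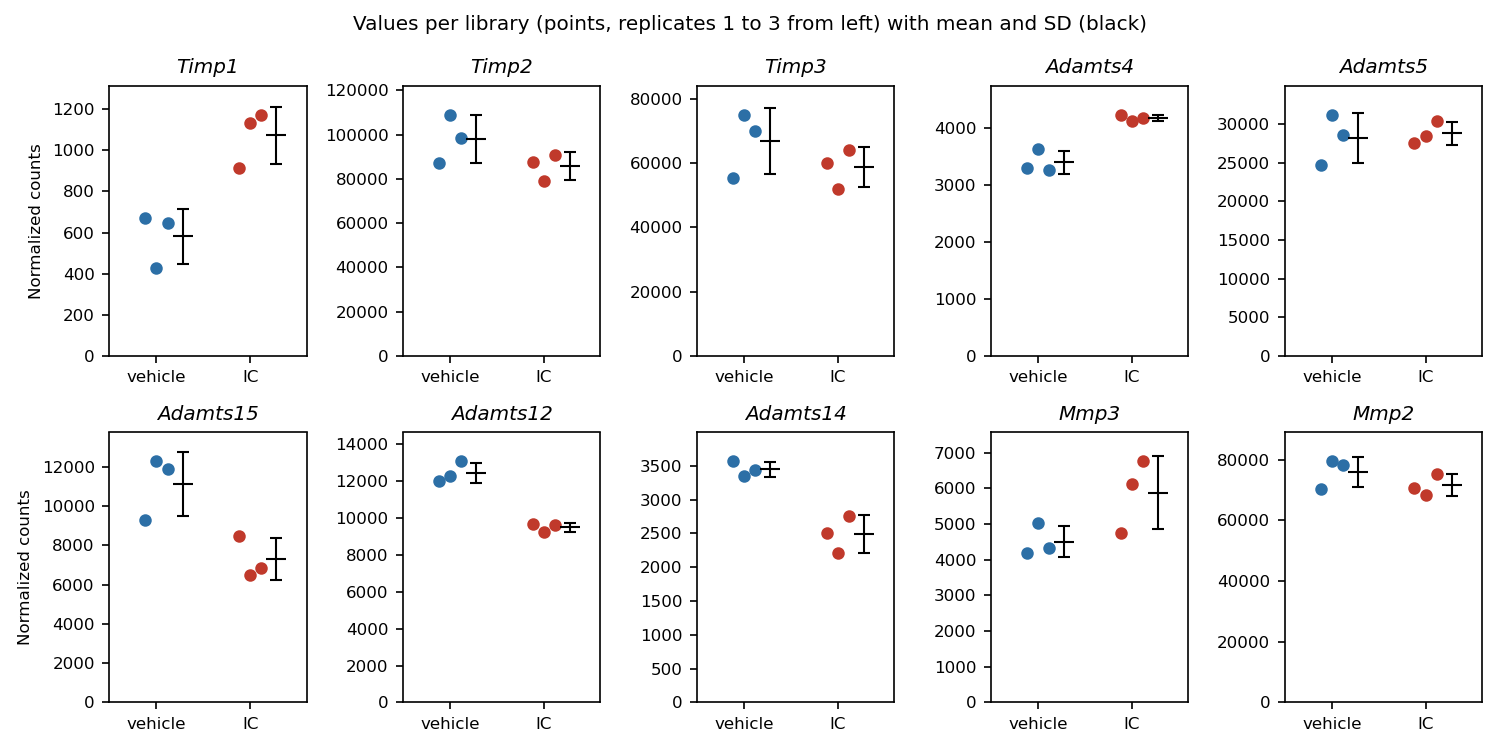
Normalized counts (vertical axes, from 0) of 10 genes in the 3 vehicle libraries (blue) and 3 IC libraries (red), with replicates 1 to 3 from left to right and the mean with SD in black. The groups lay apart for Timp1, Adamts4, Adamts15, Adamts12 and Adamts14 and overlapped for Timp2, Timp3, Adamts5, Mmp3 and Mmp2.

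Of the remaining ADAMTS genes, Adamts6, an enzyme linked to fibrillin microfibrils, had normalized counts of 1022, 1228 and 1239 with vehicle and 1388, 1632 and 1472 with IC. Its IC libraries all lay above the vehicle libraries, but the log2 fold change of 0.37 ± 0.13 was not called (DESeq2 adjusted p = 0.114). No ADAMTS-like gene was called by DESeq2. Adamtsl4, the most abundant of them per kb, had a fold of 1.1 with an interval of 0.982 to 1.24 (DESeq2 adjusted p = 0.59). For Adamtsl3 the interval was 0.891 to 1.09, and for Adamtsl5 it was 0.85 to 1.09. Of the 5 ADAMTS-like genes, 3 had a log2 fold change above 0 and 2 below.

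Mmp3, stromelysin 1, an enzyme that cuts proteoglycans and activates other MMPs, came closest to a call among the MMP genes. Its normalized counts were 4760.4, 6121 and 6755 in the IC libraries and 4187, 5016 and 4326 in the vehicle libraries. IC replicate 1 lay below vehicle replicate 2, so the groups overlapped. Its log2 fold change was 0.38 ± 0.12, or 1.3-fold, with DESeq2 adjusted p = 0.061 and an edgeR adjusted p of 0.293. It was called without IC replicate 1 (DESeq2 adjusted p = 0.00117) and without vehicle replicate 2 (0.0485), and in the other 4 fits that left out 1 library the DESeq2 adjusted p was between 0.185 and 0.453. Mmp27, in the same cluster on chromosome 9, had 603, 418 and 585 with vehicle and 679, 684 and 726 with IC. The IC libraries lay above the vehicle libraries, and the log2 fold change of 0.38 ± 0.18 was not called (DESeq2 adjusted p = 0.351). Between Mmp3 and Mmp27 lies Mmp1a, and Mmp13 lies before Mmp3, and both were below the count minimum.

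Neither of the most abundant MMP genes was called. Mmp2 had normalized counts of 70801, 68291 and 75451 in the IC libraries and 70373, 79443 and 78416 in the vehicle libraries, which overlapped. Its fold was 0.94, with an interval of 0.848 to 1.04 (DESeq2 adjusted p = 0.786). Mmp14 had a fold of 0.964 with an interval of 0.867 to 1.07 (DESeq2 adjusted p = 0.911). The level per kb of Mmp2 was between 93.3% and 100% of that of Timp2 in the IC libraries and between 84.3% and 93.3% in the vehicle libraries. Mmp19, a secreted MMP, had IC libraries that all lay above the vehicle libraries, with a fold of 1.1 that was not called (DESeq2 adjusted p = 0.684), and its exons overlap 789 bases of Tmem198b on the other strand. The other tested MMP genes, namely Mmp11, Mmp15, Mmp16, Mmp17, Mmp21, Mmp23, Mmp25 and Mmp28, had overlapping groups, and their log2 fold changes lay between −1.06 and 1.04.

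**Figure D4:**
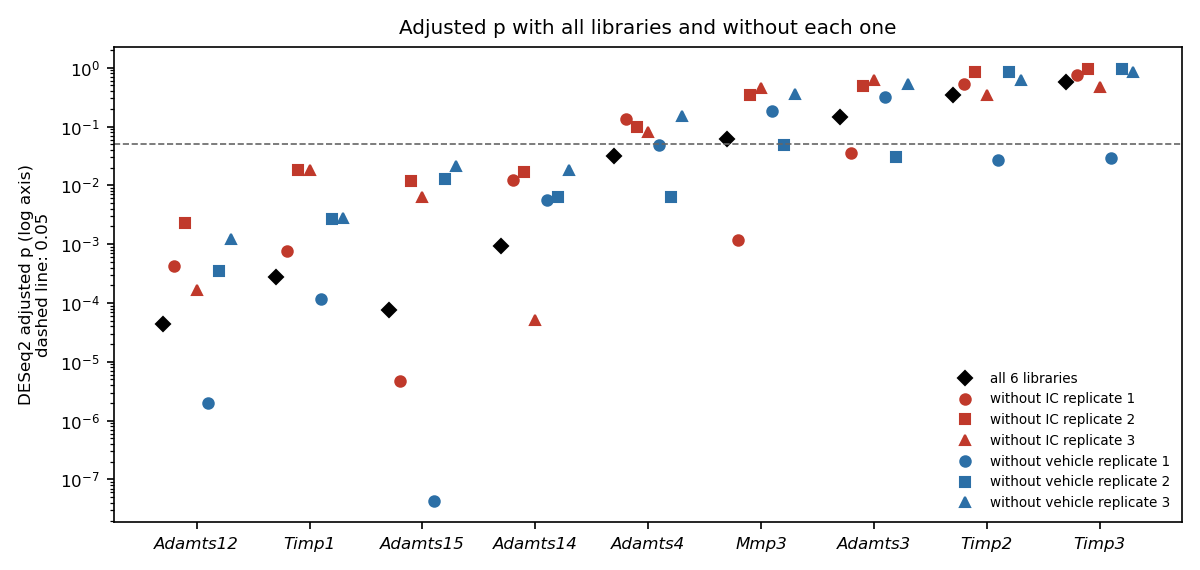
DESeq2 adjusted p (log axis, with a dashed line at 0.05) of 9 genes with all 6 libraries (black diamonds) and with each library left out in turn, in red for IC and in blue for vehicle libraries. Adamts12, Timp1, Adamts15 and Adamts14 stayed under the line in all 7 fits, and the other 5 genes lay on both sides of it.

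Other genes of matrix proteolysis were taken as a list of 55 genes with known roles beside these families. Of these, 48 were tested and 9 were called (18.8%, beside the 2.10% of all tested genes). The list was picked when earlier results of these data were known, so the shares cannot test for an excess of calls. No share at matched abundance was computed for the list. Among all genes, 4.03% were called where the mean normalized count reached 1000. The median log2 fold change of the list was −0.011. Calls were higher for 6 genes and lower for 3. With edgeR 0 of the 48 were called (17 at an unadjusted p under 0.05), and limma-voom called 1, Prg4. None of the 9 calls held in every fit that left out 1 library, and the number called ranged from 2, without IC replicate 2 or vehicle replicate 3, to 12, without vehicle replicate 1.

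Matrix substrates held most of these calls, with 3 higher and 2 lower of 10 tested. Acan, the aggrecan that Adamts4 and Adamts5 enzymes cut, had normalized counts of 228, 398 and 229 in the IC libraries and 78.7, 123 and 137 in the vehicle libraries, with every IC library above the vehicle libraries. Its log2 fold change was 1.34 ± 0.32 (DESeq2 adjusted p = 0.0029), and without IC replicate 2 the call was lost (DESeq2 adjusted p = 0.147). The markers of cartilage and bone, a list that holds Acan itself, summed to 69.3 to 86.0 CPM after IC and 53.1 to 83.8 CPM after vehicle, and their part in this value was not tested. Chad held most of that sum, with a log2 fold change of 0.26 ± 0.31 (DESeq2 adjusted p = 0.878). Of the 5 tested markers, 3 had a log2 fold change below 0. These were Col2a1, the main cartilage collagen, at −0.75 ± 0.26 (DESeq2 adjusted p = 0.107), Acp5 at −0.34 ± 0.27 (0.741) and Sp7 at −1.48 ± 1.14. Sp7 was too low to be given an adjusted p. Vcan, versican, a substrate of Adamts1 and Adamts15 enzymes, had a log2 fold change of 0.33 ± 0.09 (DESeq2 adjusted p = 0.022). Prg4, lubricin, a product of the synovial lining, had 8263, 13855 and 10408 with vehicle and 17352, 22054 and 22899 with IC, with groups apart and a log2 fold change of 0.94 ± 0.25 (DESeq2 adjusted p = 0.0103). The 5 lining fibroblast markers, of which Prg4 is 1, summed to 478 to 590 CPM after IC and 292 to 439 CPM after vehicle. Prg4 itself made up most of this sum in both groups. Of that list, Prg4 was higher while Clic5 and Tspan15 were lower, at log2 fold changes of −0.68 ± 0.15 and −0.90 ± 0.23. Htra4 (−0.21 ± 0.21) and Hbegf (0.27 ± 0.12) were not called. Col3a1, a fibrillar collagen, had a log2 fold change of −0.38 ± 0.10 (DESeq2 adjusted p = 0.00679), and Fn1, fibronectin, one of −0.34 ± 0.11 (DESeq2 adjusted p = 0.0494). With 1 library left out, the DESeq2 adjusted p rose to as much as 0.253 for Vcan and 0.173 for Col3a1 (without vehicle replicate 3), 0.155 for Prg4 (without IC replicate 3) and 0.475 for Fn1 (without vehicle replicate 2).

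Among proteinases and their activators, Plaur, the urokinase receptor that holds plasminogen activation at the cell surface, was higher. It had 1179, 1132 and 1337 in the IC libraries and 904, 877 and 679.7 in the vehicle libraries, with the groups apart, and its log2 fold change was 0.57 ± 0.15 (DESeq2 adjusted p = 0.00932). Pcsk5, a proprotein convertase, had a log2 fold change of 0.37 ± 0.11 (DESeq2 adjusted p = 0.0264), and Adam33, a membrane proteinase of mesenchymal cells, of 0.34 ± 0.10 (DESeq2 adjusted p = 0.0488). Adam10, a major sheddase of cell surface proteins, was lower at −0.29 ± 0.08 (DESeq2 adjusted p = 0.0266). The highest DESeq2 adjusted p with 1 library left out was 0.121 for Plaur and 0.213 for Pcsk5 (without IC replicate 3), 0.363 for Adam33 (without IC replicate 1) and 0.154 for Adam10 (without IC replicate 2). Of the 9 tested cathepsins and other matrix proteinases, and of the 10 tested genes of membrane inhibitors and clearance, such as Reck and Lrp1, 0 were called by DESeq2. At an unadjusted p under 0.05 with DESeq2 there were 3 and 0 genes, and edgeR called 0 in both.

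**Figure D5:**
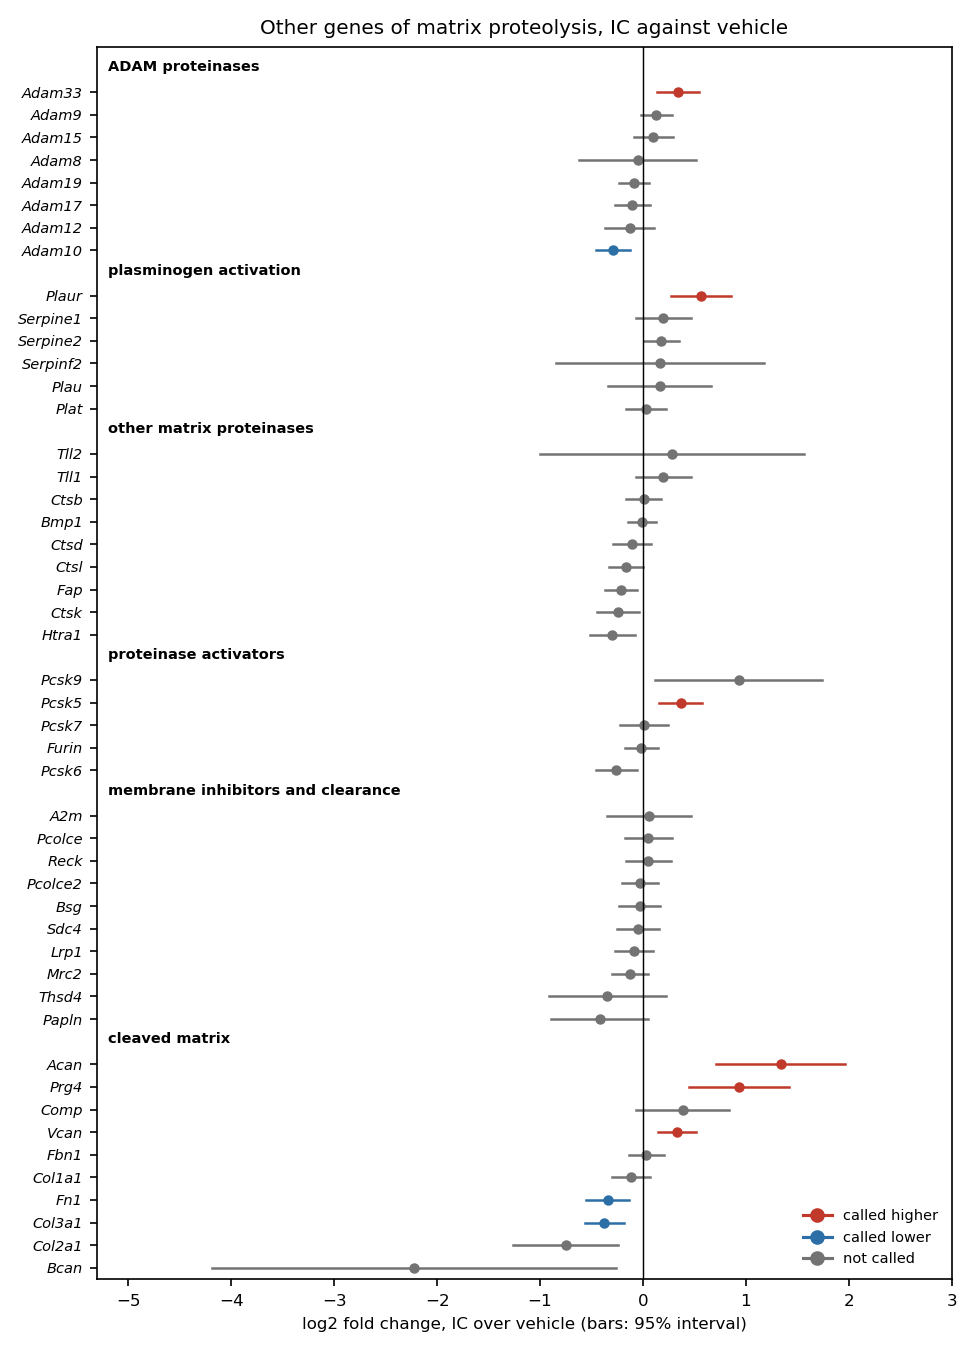
Log2 fold change of IC over vehicle, with its 95% interval (bars), for the 48 tested genes of the proteolysis list in 6 groups, with red for called higher, blue for called lower and grey for the rest. The 9 called genes were spread over 4 of the 6 groups, and 5 of them were matrix substrates.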

How the data were processed

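What the authors deposited are raw, unscaled counts per gene. Per the labels and the study's methods, the authors trimmed reads with Trim Galore, aligned them to mm10 with HISAT2 and counted them with featureCounts, after paired-end sequencing of rRNA-depleted total RNA. Versions, annotation and strand setting are not given in the sources used here, and the labels and the methods name different library kits. Genes that reached 10 counts in 3 or more libraries were tested with DESeq2 (version 1.42.0, R 4.3.3), which the study's methods name, with treatment as the only term, and p-values were adjusted over the 16055 of 19925 tested genes that its default filters kept. The other 3870 got no adjusted p. Normalized counts are counts over the library's size factor, and log2 fold changes are unshrunken. Lengths and positions are from GENCODE M21 (GRCm38, the assembly that mm10 names), which matched 23890 symbols (98.1%) and all 45 members, and promoter sequences are from RefSeq.

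Alternatives were edgeR (version 4.0.16), limma-voom (version 3.58.1), total-count or TMM scaling, no filter on low counts, Cook's cutoff off, independent filtering off, 1 surrogate variable (sva, version 3.50.0), a block for the replicate number, 6 fits without 1 library each, and another gene length. The members and lists were chosen with earlier results of these data known. Genes are named if they are TIMPs, called, at an unadjusted p under 0.05, among the 3 most abundant per kb of their class, or Mmp3, Mmp13, Adamts4 or Adamts5, and partner genes if called. Others (Adamts7, Adamts8, Adamts9, Adamts20, Mmp19, Mmp9 and the remaining MMPs) were chosen after their values were seen.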

Additional observations from a re-analysis of the deposited data

How the results depend on the processing

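With 3 libraries per group, the calls depended most on the test. DESeq2 called 419 genes, edgeR 37 and limma-voom 62. Of the members, 5 were called by DESeq2, 0 by edgeR (10 at an unadjusted p under 0.05) and 1 by limma-voom. Of the proteolysis list these counts were 9, 0 (17 at an unadjusted p under 0.05) and 1. The cause was not tested. Leaving out 1 library gave 281 to 677 calls over all genes, the most without vehicle replicate 1, 4 to 7 among members and 2 to 12 in the list. Timp1, Adamts12, Adamts14 and Adamts15 were called in all 6 of these DESeq2 fits. With the replicate number as a block, 320 genes and 4 members were called (Adamts4 was lost), and 4 genes of the list in place of 9. Whether the numbers pair the libraries is not known. Deviations from the group means correlated at 0.0066, −0.243 and 0.0299 for numbers 1, 2 and 3 over 13435 genes. No IC library correlated best with the vehicle library of its own number. With 3 libraries per group, each centred on its group mean, these values cannot exclude pairing. With 1 surrogate variable 7 members were called, Mmp3 and Adamts3 being added, and with total-count scaling 6, Mmp3 being added. TMM scaling, no count filter, no independent filtering and no Cook's cutoff each left the 5 members called. Over 28 of the named genes, without Timp4, Mmp13 and those chosen after their values were seen, 330 of the recomputed fold changes kept direction and side of the threshold, 76 lost a call and 9 gained one. The 5 that changed sign were uncalled values near 0 when 1 library was left out: Adamts5 at −0.0095 without IC replicate 3 and −0.057 without vehicle replicate 1, Adamtsl3 at 0.00053 without IC replicate 3 and 0.027 without vehicle replicate 3, and Adamtsl5 at 0.011 without vehicle replicate 3. The range over the 6 fits was −0.057 to 0.11 for Adamts5, −0.051 to 0.027 for Adamtsl3 and −0.11 to 0.011 for Adamtsl5. Among the 330 are genes that the main fit did not call, which could not lose a call. Fits without Cook's cutoff or independent filtering are also among them, and these left the fold changes as they were. Of the 76 lost calls, 14 came with edgeR and 12 with limma-voom. Of the 10 most abundant members per kb, 9 stayed so with the longest transcript as the length and 10 with total-count scaling. The count minimum left 5 members untested, and without it all 45 were tested and 5 called.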
